A study of Mus musculus with 9 samples.

Results

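The genes described here are 32 enzymes and regulators of cholesterol and fatty acid synthesis, listed by name: 18 enzymes of the sterol pathway, 6 regulators and transport proteins, and 8 genes of fatty acid synthesis. Their expression was measured on 9 one-colour Agilent arrays of colonic mucosa RNA from ICR mice, an outbred stock, in 3 groups of 3 arrays. Every group was given the colon carcinogen 1,2-dimethylhydrazine (DMH) under the skin, in weekly doses of 20 mg/kg over 20 weeks. The groups named hCA-Notumor and hCA-Tumor ate a diet with 3% calcium and did not or did carry tumors, and the group named DMH ate a diet with 1.24% calcium. For the DMH group the tumor field reads only control, and its tumor status is otherwise unknown. The labels do not tie the 3 arrays of a group to different animals. The p-values therefore cover array-to-array spread alone, possibly technical, and precision is limited by having 3 arrays per group.

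Of the 32 genes, 31 had a probe named here, and all 31 were well above background on all 9 arrays, so none entered through the group in which it was high. They stand among 21094 features tested. Idi1, the isopentenyl diphosphate isomerase, was not analysed here. Levels are log2 signals relative to the 75th percentile of the same array, so that 0 is that percentile. Each gene is represented by its brightest probe, and a level compares arrays for 1 gene, never 1 gene with another.

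Cholesterol is built from acetyl-CoA by way of mevalonate, farnesyl diphosphate, squalene and lanosterol, and fatty acids are built from the same cytosolic acetyl-CoA by way of malonyl-CoA. The transcription factors SREBP-1 and SREBP-2, made from Srebf1 and Srebf2, are held in the endoplasmic reticulum by Insig proteins when sterols are plentiful. When sterols fall, the escort protein Scap carries them to the Golgi apparatus, where they are cleaved, and the released fragment binds sterol regulatory elements in promoters of both branches, usually beside sites for NF-Y (CCAAT) and Sp1 (GC boxes). In the gut epithelium the pathway supplies membranes of dividing cells and responds to the loss of bile acids and cholesterol in stool.

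The promoters are shown first because SREBP, NF-Y and Sp1 are known to act through short motifs in them. RefSeq promoters on build GRCm38.p6 were found for 26 of the 32 genes (15 sterol, 5 regulator, 6 fatty acid), some with several start sites, and the 250 bases before each start were searched on both strands. The sterol regulatory element searched as TCACNCCAC was in 1 of the 15 sterol genes, Hmgcs1, the enzyme that makes HMG-CoA, at position -137 from the start site. Counted by promoter, it was in 1 of the 18 promoters of these sterol genes, 5.56%, against 1.05% of all 32851 promoters. In this stretch, chr13:119690174-119690262 on the plus strand, the capitals mark that match only.
Hmgcs1: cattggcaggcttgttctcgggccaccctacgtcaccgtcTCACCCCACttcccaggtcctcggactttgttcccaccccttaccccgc

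The CCAAT motif (CCAAT) was in 14 of 18 sterol promoters, 77.8%, against 33.8% of all promoters and 34.8% of the 14396 promoters of tested genes. The GC box (GGGCGG) was in 15 of 18, 83.3%, against 32.7% and 52.2%. The E-box (CANNTG) was in 66.7% of sterol promoters, against 66.2% and 59.9%. In the 7 fatty acid promoters CCAAT, the GC box and the E-box each stood at 42.9%. These matches are descriptions of letters, not of binding. The 150 bases before the start are shown for 5 genes, chosen after their values were seen because they differ in how they moved: Mvk, mevalonate kinase (chr5:114444119-114444268, plus strand), Lss, lanosterol synthase (chr10:76531455-76531604, plus), Acss2, acetyl-CoA synthetase (chr2:155517893-155518042, plus), Acly, ATP citrate lyase (chr11:100528001-100528150, minus), and Fasn, fatty acid synthase (chr11:120824548-120824697, minus). Capitals mark CCAAT and the GC box on either strand.
Mvk: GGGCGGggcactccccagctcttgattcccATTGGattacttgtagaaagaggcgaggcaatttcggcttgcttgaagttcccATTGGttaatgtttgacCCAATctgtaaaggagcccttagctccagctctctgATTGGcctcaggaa
Lss: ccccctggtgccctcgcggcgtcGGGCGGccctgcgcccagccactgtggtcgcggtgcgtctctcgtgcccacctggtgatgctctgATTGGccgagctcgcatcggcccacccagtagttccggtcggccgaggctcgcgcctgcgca
Acss2: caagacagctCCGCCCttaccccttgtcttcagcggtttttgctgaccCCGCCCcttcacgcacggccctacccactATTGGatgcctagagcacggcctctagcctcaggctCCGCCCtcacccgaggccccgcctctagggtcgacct
Acly: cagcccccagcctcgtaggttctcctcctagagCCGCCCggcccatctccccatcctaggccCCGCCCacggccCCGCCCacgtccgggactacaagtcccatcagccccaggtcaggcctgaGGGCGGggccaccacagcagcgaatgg
Fasn: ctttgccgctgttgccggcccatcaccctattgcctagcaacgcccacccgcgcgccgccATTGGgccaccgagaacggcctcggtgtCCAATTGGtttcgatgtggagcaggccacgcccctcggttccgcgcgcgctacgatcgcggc

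In these stretches Mvk held 4 CCAAT matches and 1 GC box, Lss 1 of each, and Acss2 1 CCAAT match and 3 GC boxes. Acly held 4 GC boxes and no CCAAT match, and Fasn the reverse, 3 CCAAT matches and no GC box. A pair of the Fasn matches overlap on opposite strands, and an E-box lies across them.

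On the brightest probes sterol enzymes were higher in hCA-Notumor than in DMH and lower in hCA-Tumor than in DMH. These differences were less than 2-fold. The fatty acid genes split in hCA-Notumor against DMH and were mostly lower in hCA-Tumor. In hCA-Notumor against DMH, 12 of 17 sterol enzymes rose and 1 fell, with a median difference of 0.29 on the log2 scale. In that contrast 35.6% of all features passed the threshold (18.5% higher, 17.1% lower; limma, Benjamini-Hochberg adjusted p below 0.05), and their median difference was 0.08. The groups did not overlap, with hCA-Notumor above, for 14 sterol enzymes and 3 fatty acid genes (33.8% of all features), and with it below for 1 and 4 (24.2%). Of the 8 fatty acid genes 3 rose (Acly, Acss2 and Scd2), 3 fell (Scd1, Me1 and Fasn), and the median was -0.15.

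In hCA-Tumor against DMH, 9 of 17 sterol enzymes fell and 1 rose, with a median of -0.18. Among all features 37.2% passed (22.1% higher, 15.1% lower), with a median of 0.09. For 2 sterol enzymes and 1 fatty acid gene all hCA-Tumor arrays lay above all DMH arrays (29.3% of all features), and for 10 and 7 below (20.3%). Of the fatty acid genes 5 of 8 fell and 0 rose, with a median of -0.40. At an unadjusted p under 0.05 (limma) these counts were 6 and 0. The contrasts against DMH share the DMH arrays, so their values are given side by side and are not independent of each other.

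Between the 2 high calcium groups, 12 sterol enzymes were higher in hCA-Notumor and 0 lower, with a median of 0.50, and 6 fatty acid genes were higher and 0 lower, with a median of 0.35. Among all features 47.6% passed here (19.8% higher, 27.9% lower), with a median of -0.02. All hCA-Notumor arrays lay above all hCA-Tumor arrays for 13 sterol enzymes and 7 fatty acid genes (25.1% of all features), and below for 0 of either (34.1%). At an unadjusted p under 0.05 (limma) 12 sterol enzymes and 7 fatty acid genes were higher and 0 lower. The fatty acid count fell when single arrays were left out. It was 3 without array 1 or array 2 of hCA-Notumor and without array 1 or array 2 of hCA-Tumor, with Me1 then lower without array 2 of hCA-Notumor. In these fits, with fewer arrays, 39.3 to 42.2% of all features passed. The 12 sterol calls of this contrast all held with each array left out in turn.

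The branch medians on single arrays showed the same separation as the fitted values. Relative to the DMH means, the sterol median was 0.34, 0.25 and 0.27 on the hCA-Notumor arrays, 0.04, -0.02 and -0.03 on the DMH arrays, and -0.17, -0.19 and -0.20 on the hCA-Tumor arrays. The fatty acid median was -0.10, -0.18 and -0.18 in hCA-Notumor, 0.03, -0.02 and -0.02 in DMH, and -0.37, -0.48 and -0.31 in hCA-Tumor. On these medians the high calcium groups stood on opposite sides of DMH for the sterol enzymes and on the same side for the fatty acid genes. With the mean of a gene's probes in place of the brightest, the fatty acid median turned to 0.15 in hCA-Notumor and was -0.43 in hCA-Tumor, on opposite sides too. The difference between the branches was described and not tested.

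**Figure D1:**
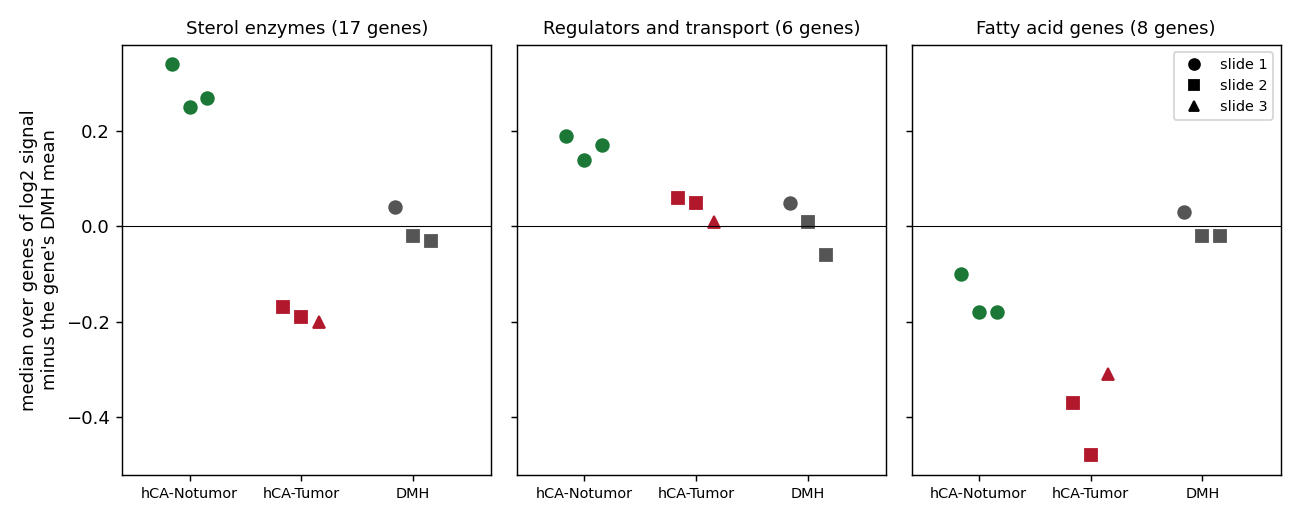
Median over the genes of each branch of the log2 signal minus the gene's DMH mean, 1 point per array, by group, with the slide as the marker shape. The sterol medians lie between 0.25 and 0.34 in hCA-Notumor and between -0.20 and -0.17 in hCA-Tumor, and the fatty acid medians lie below the DMH arrays in both high calcium groups.

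How arrays were centred set how many sterol enzymes passed. On the authors' deposited log2 table, in which each array is the scanner value minus 1 constant that lies within 0.0098 of its median over all probes, the median of all features in hCA-Notumor against DMH was -0.14, a shift of its zero. There limma called 0 sterol enzymes higher against DMH, and 1 at an unadjusted p under 0.05 (14 on the 75th percentile scale), with a median of 0.10, and in hCA-Tumor 4 fell. With the centring alone changed to that median, on all 21094 features, the first count was again 0 with a median of 0.10, and 3 fell in hCA-Tumor. Centred on the median of the deposited table's own probes instead, 12 rose and 9 fell. The deposited table's constants also differed within a group, at -3.29, -3.29 and -2.83 on the hCA-Tumor arrays, so spreads changed along with the zero. Between the high calcium groups Insig1 differed by 0.53 on the 75th percentile scale and 0.48 on the deposited table. Its adjusted p (limma) was 0.000428 and 0.0526. Relative to the median of all features the sterol branch hardly moved between the scales, at 0.22 and 0.24 in hCA-Notumor, -0.27 and -0.27 in hCA-Tumor, and 0.51 and 0.54 between the high calcium groups. Of the calls among all features, 51.9% were higher in hCA-Notumor against DMH on the 75th percentile scale and 29.3% on the median scale. In hCA-Tumor against DMH these shares were 59.5% and 39.5%.

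**Figure D2:**
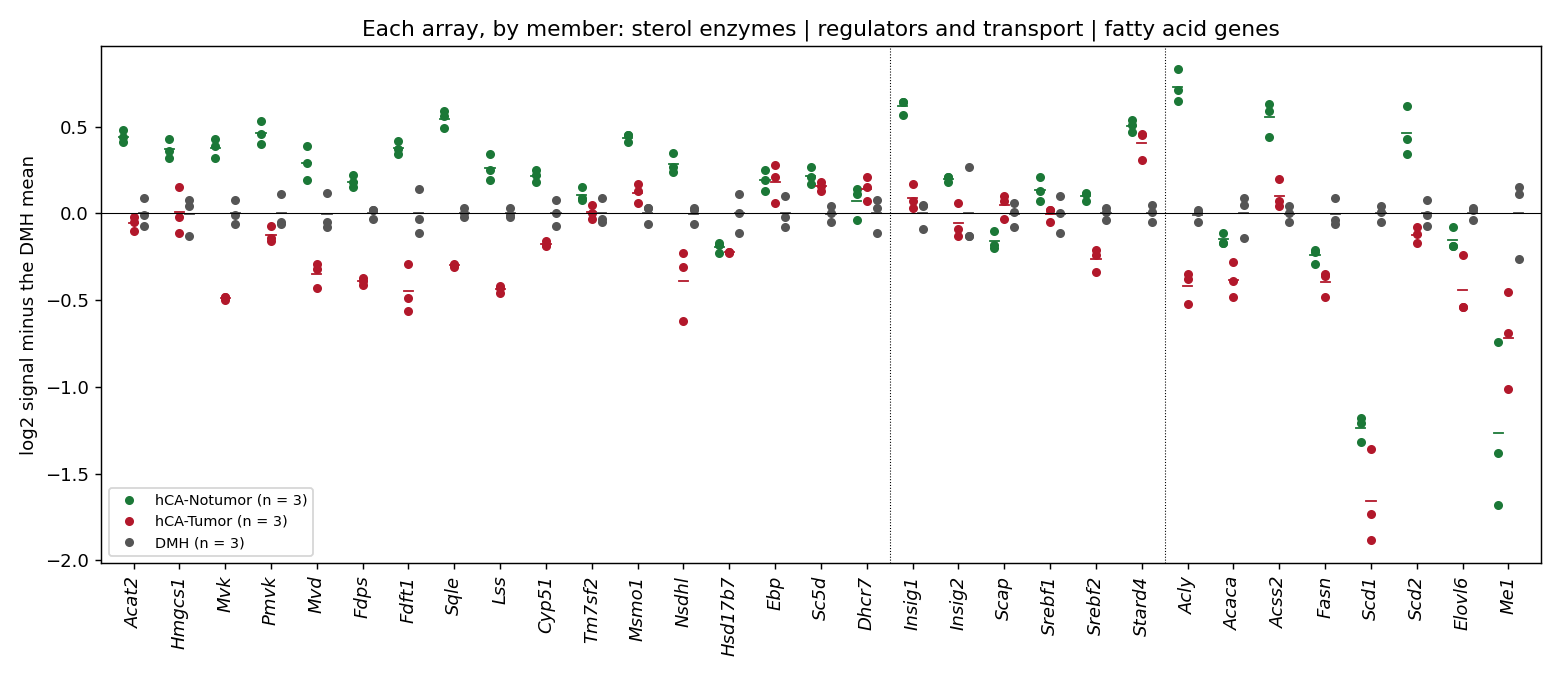
Log2 signal of each gene on each of the 9 arrays minus the gene's mean in DMH, with short bars for group means, in pathway order from Acat2 to Dhcr7, then regulators, then fatty acid genes. Sterol enzymes from Acat2 to Msmo1 sit above the DMH arrays in hCA-Notumor except Tm7sf2, which overlaps them, and Scd1 and Me1 lie below them in both high calcium groups.

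The steps from acetyl-CoA to squalene moved as a block in hCA-Notumor: 7 of 7 measured genes rose against DMH, with a median of 0.38, and 7 of 7 were higher than in hCA-Tumor, with a median of 0.58. In hCA-Tumor against DMH, 4 of the 7 fell, with a median of -0.34. Acat2, the cytosolic thiolase that joins 2 acetyl-CoA units, read 0.59, 0.66 and 0.62 in hCA-Notumor, 0.11, 0.27 and 0.17 in DMH and 0.08, 0.13 and 0.16 in hCA-Tumor. Its hCA-Notumor arrays stood apart from the other 6, which overlapped. It was 1.36-fold above DMH (log2 difference 0.44 ± 0.06 SE, adjusted p = 0.000998) and differed by -0.06 in hCA-Tumor. Hmgcs1 showed the same form, with 4.43, 4.39 and 4.50 in hCA-Notumor, 4.15, 3.94 and 4.11 in DMH and 4.05, 4.22 and 3.96 in hCA-Tumor. It rose by 0.37 ± 0.08 in hCA-Notumor and differed by 0.01 ± 0.08 in hCA-Tumor. With the slide as a block the rise of Hmgcs1 was 0.29 and missed the threshold (adjusted p = 0.0882). Its difference of 0.36 between the high calcium groups was then 0.18 and lost too (adjusted p = 0.341).

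Mvk had 3 separate groups. Its levels were 0.65, 0.54 and 0.61 in hCA-Notumor, 0.30, 0.21 and 0.16 in DMH and -0.26, -0.26 and -0.28 in hCA-Tumor. It was 1.30-fold above DMH in hCA-Notumor and 1.40-fold below DMH in hCA-Tumor (adjusted p = 0.00154 and 0.000568). The high calcium groups differed by 0.87 ± 0.05, the largest difference among the sterol enzymes on their brightest probes. Pmvk, phosphomevalonate kinase, gave 2.84, 2.71 and 2.77, then 2.42, 2.26 and 2.25 in DMH, then 2.17, 2.24 and 2.15 in hCA-Tumor. No groups overlapped, but hCA-Tumor differed from DMH by -0.12 only, with adjusted p = 0.18.

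Mvd, which decarboxylates mevalonate diphosphate, read 2.56, 2.46 and 2.66 in hCA-Notumor, 2.39, 2.22 and 2.19 in DMH and 1.98, 1.95 and 1.84 in hCA-Tumor. Its rise over DMH of 0.29 was called with all arrays and was lost without array 1 or 3 of hCA-Notumor and without array 2 or 3 of DMH (0.24 to 0.30), and it was 0.17 with the slide as a block. Fdps, farnesyl diphosphate synthase, read 3.08, 3.01 and 3.04 in hCA-Notumor, 2.83, 2.88 and 2.88 in DMH and 2.45, 2.49 and 2.47 in hCA-Tumor. Its groups were narrow and separate, with a small rise of 0.18 in hCA-Notumor and a larger fall in hCA-Tumor, of -0.39 ± 0.04 (adjusted p = 0.000546). On the authors' median-centred scale the first of these was -0.01, and without array 1 of hCA-Notumor it was 0.16 and missed the threshold.

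Fdft1, squalene synthase, commits farnesyl diphosphate to sterols. It read 3.55, 3.60 and 3.52 in hCA-Notumor, 3.32, 3.15 and 3.07 in DMH and 2.69, 2.62 and 2.89 in hCA-Tumor. The groups did not overlap, and the high calcium groups were 1.77-fold apart (0.82 ± 0.09, adjusted p = 0.000369). Its rise over DMH of 0.38 was lost without array 2 of hCA-Notumor, array 2 of DMH or array 3 of DMH (0.32 to 0.36).

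After squalene the branch was mixed on the brightest probes. Of 10 genes 5 rose and 1 fell in hCA-Notumor against DMH (median 0.22), 1 rose and 5 fell in hCA-Tumor (median -0.09), and 5 were higher in hCA-Notumor than in hCA-Tumor (median 0.21). Between the high calcium groups dimmer probes gave 1.33 for Lss, 0.77 for Hsd17b7 and 1.20 for Dhcr7, all called. The brightest probes of these genes gave 0.69, 0.03 and -0.07. For Nsdhl the dimmer probes gave 0.92, called, and -0.22, not called. Sqle, squalene monooxygenase, had narrow, separate groups, with 4.17, 4.10 and 4.20 in hCA-Notumor, 3.64, 3.59 and 3.61 in DMH and 3.31, 3.32 and 3.30 in hCA-Tumor. It rose 1.46-fold in hCA-Notumor (0.54 ± 0.04, adjusted p = 0.000141) and fell in hCA-Tumor (-0.30 ± 0.04, adjusted p = 0.00191). Lss read 0.25, 0.16 and 0.10, then -0.11, -0.10 and -0.06 in DMH, then -0.55, -0.52 and -0.51 in hCA-Tumor. Its hCA-Tumor arrays lay 1.35-fold below DMH, and its hCA-Notumor arrays 1.20-fold above.

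Cyp51, the lanosterol demethylase, moved less on its brightest probe. It read 0.49, 0.42 and 0.46 in hCA-Notumor, 0.17, 0.24 and 0.32 in DMH and 0.08, 0.06 and 0.05 in hCA-Tumor. Its fall in hCA-Tumor of -0.18 was lost without array 1, 2 or 3 of hCA-Tumor and without array 2 or 3 of DMH (-0.19 to -0.14), and its rise of 0.21 was lost without array 1 or 3 of hCA-Notumor or array 2 of DMH (0.20 to 0.21). The dimmer Cyp51 probes differed by -0.69 and -0.92 in hCA-Tumor against DMH, both called. In hCA-Notumor against DMH they differed by 0.15 and 0.44, of which only the latter was called. Between the high calcium groups they gave 0.84 and 1.36, against 0.40 on the brightest probe. Msmo1, a C4 sterol methyl oxidase, read 4.69, 4.73 and 4.73 in hCA-Notumor, 4.31, 4.31 and 4.22 in DMH and 4.34, 4.45 and 4.41 in hCA-Tumor. It was 1.35-fold above DMH in hCA-Notumor (adjusted p = 0.000584) and not lower in hCA-Tumor, where the difference was 0.12.

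Nsdhl, which removes the C4 carboxyl group, read 1.85, 1.74 and 1.77 in hCA-Notumor, 1.52, 1.44 and 1.53 in DMH and 1.27, 0.88 and 1.19 in hCA-Tumor. No group overlapped another, yet the difference of 0.29 against DMH missed the threshold (adjusted p = 0.058). In hCA-Tumor it fell by 0.38, a call that was lost without array 1 or array 3 of DMH (-0.37 in both). Under normexp background correction another probe of the gene became the brightest, and the differences were then -0.01 in hCA-Tumor and -0.20 between the high calcium groups, against 0.67 before. On the same probe normexp gave -0.37, which missed the threshold (adjusted p = 0.0526), and 0.64. Hsd17b7, a 3-keto sterol reductase, was the only sterol enzyme called lower in hCA-Notumor, and only on its brightest probe. Its other probe was called higher, at 0.52, and the mean of both gave 0.16 (adjusted p = 0.0379). It read -1.29, -1.23 and -1.24 there, -1.17, -1.06 and -0.95 in DMH and -1.28, -1.28 and -1.29 in hCA-Tumor. The fall of 0.19 in hCA-Notumor was lost without array 1, 2 or 3 of hCA-Notumor and without array 2 or 3 of DMH (-0.21 to -0.14), and that of 0.22 in hCA-Tumor without array 1 or 2 of hCA-Tumor and array 2 or 3 of DMH (-0.22 to -0.17).

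Few calls came from the last steps on the brightest probes. Sc5d, the lathosterol desaturase, read 2.65, 2.61 and 2.71 in hCA-Notumor, 2.62, 2.60 and 2.57 in hCA-Tumor and 2.48, 2.44 and 2.39 in DMH. Both high calcium groups lay above DMH, by 0.22 and 0.16, and they overlapped each other. The first call was lost with the slide as a block (0.18, adjusted p = 0.0838) and with normexp (0.14), and the second with normexp (0.16) and without array 1 or 2 of hCA-Tumor or array 2 or 3 of DMH (0.14 to 0.16). Ebp, the sterol isomerase, ran from 5.23 to 5.59, Dhcr7, the 7-dehydrocholesterol reductase, from 3.84 to 4.16, and Tm7sf2, a C14 sterol reductase, from 2.57 to 2.77 over all arrays. On their brightest probes, with all arrays and neither block nor weights, none of these 3 passed in any contrast with limma. Their adjusted p ran from 0.0839 to 0.956. The dimmer Dhcr7 probe was called at -1.20 in hCA-Tumor against DMH and at 1.20 between the high calcium groups. In hCA-Tumor against DMH Ebp also passed with the slide as a block (0.29) and with array weights (0.26), and Dhcr7 with array weights (0.20). Ebp was 0.24 above DMH in hCA-Notumor without array 1 of DMH and in hCA-Tumor without array 3 of hCA-Tumor, and Tm7sf2 was 0.15 above DMH in hCA-Notumor without array 1 of DMH, and these 3 values passed.

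**Figure D3:**
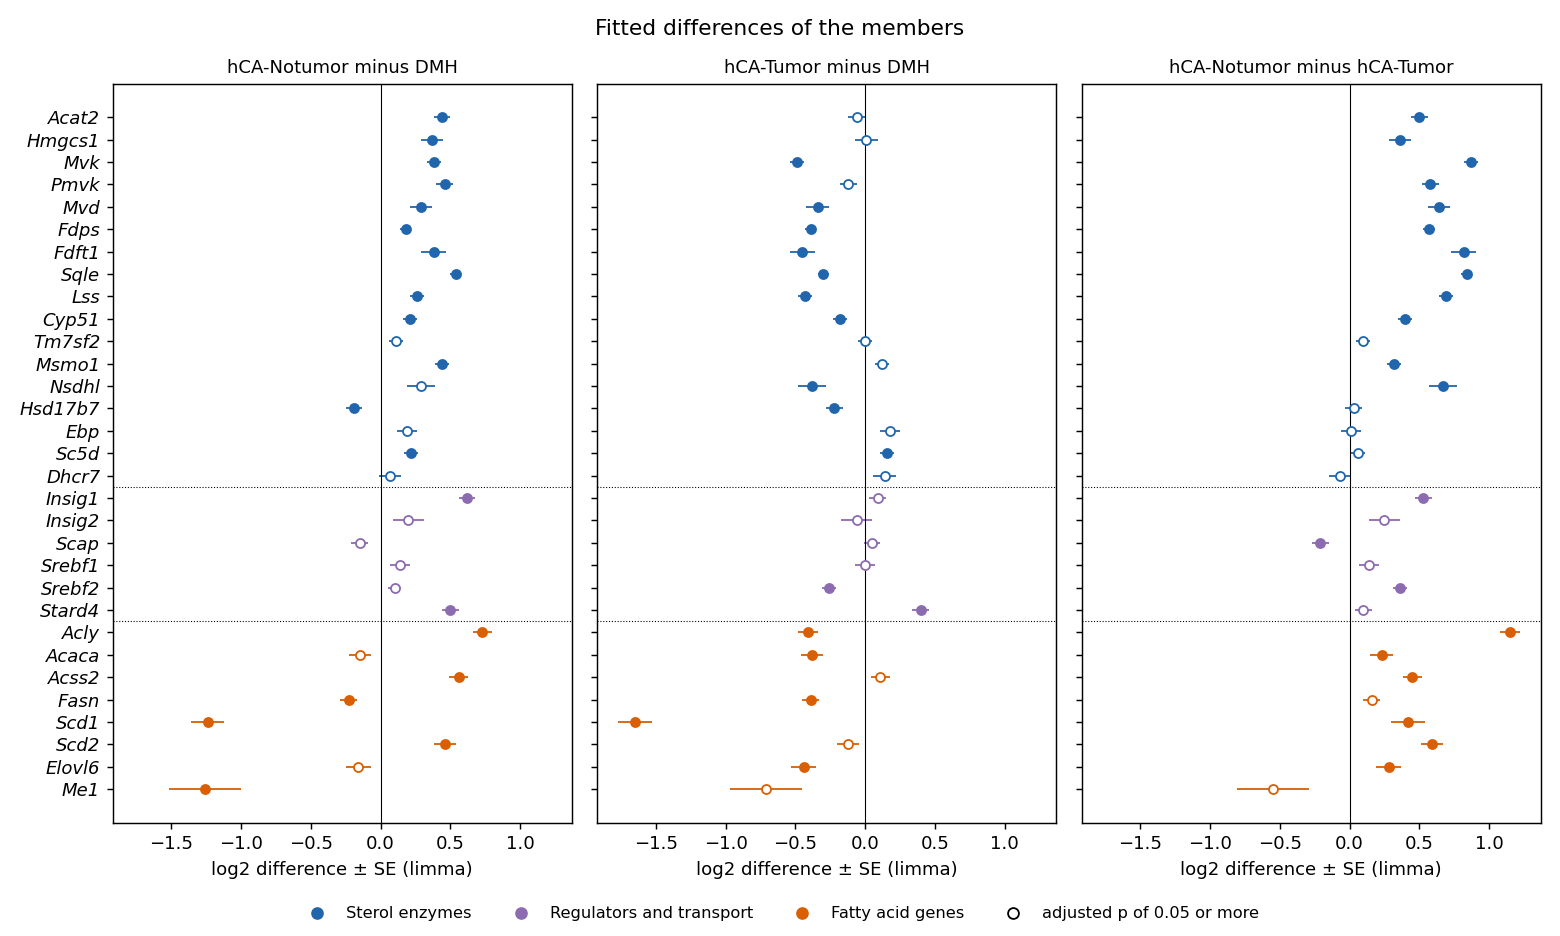
Fitted log2 difference with its standard error for each gene in 3 contrasts, with filled points where the adjusted p was below 0.05. The 7 genes from Acat2 to Fdft1 are filled and right of 0 in hCA-Notumor against DMH, and Scd1 lies at -1.24 and -1.65 against DMH.

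Of the 6 regulators 2 rose in hCA-Notumor against DMH, Insig1 and Stard4, and in hCA-Tumor 1 rose, Stard4, and 1 fell, Srebf2. Insig1, which retains SREBP in the endoplasmic reticulum and is itself induced by it, read 1.90, 1.97 and 1.97 in hCA-Notumor, 1.38, 1.24 and 1.37 in DMH and 1.5, 1.40 and 1.36 in hCA-Tumor. Only hCA-Notumor stood apart, 1.53-fold above DMH (0.62 ± 0.06, adjusted p = 0.000302), and hCA-Tumor differed by 0.09. Stard4, a carrier of cholesterol between membranes, was higher in both high calcium groups on its brightest probe. That probe read 3.63, 3.59 and 3.66 in hCA-Notumor and 3.57, 3.58 and 3.43 in hCA-Tumor against 3.13, 3.17 and 3.07 in DMH. It rose 1.42-fold and 1.32-fold, and the high calcium groups differed from each other by 0.10 (adjusted p = 0.196). The dimmer probes of Stard4 differed by 0.05 and 0.03 in hCA-Tumor against DMH, neither called. They rose by 0.46 and 0.54 in hCA-Notumor against DMH and put it 0.42 and 0.51 above hCA-Tumor, all called.

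Srebf2, which encodes the factor that favours sterol genes, read 2.51, 2.47 and 2.52 in hCA-Notumor, 2.43, 2.41 and 2.36 in DMH and 2.16, 2.19 and 2.06 in hCA-Tumor. It fell in hCA-Tumor against DMH (-0.26 ± 0.05, adjusted p = 0.00577) and was 0.36 higher in hCA-Notumor than in hCA-Tumor. Its difference between hCA-Notumor and DMH was 0.10, with adjusted p = 0.153. Srebf1, which encodes the factor that favours fatty acid genes, ran from 4.22 to 4.54 over all arrays and passed in no contrast (adjusted p 0.127 to 0.988). Scap ran from 3.15 to 3.45 and was lower in hCA-Notumor than in hCA-Tumor, by -0.21, a call lost without array 1 or 2 of either group (-0.20 to -0.18). Insig2, the second Insig protein, ran from 2.25 to 2.65 and passed in no contrast, but was 0.33 above DMH in hCA-Notumor without array 1 of DMH, which read 2.65 against 2.25 on both other DMH arrays.

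In the fatty acid branch 3 genes rose in hCA-Notumor against DMH, Acly, Acss2 and Scd2, and of these only Acly also fell in hCA-Tumor. Acly, which makes cytosolic acetyl-CoA from citrate for both branches, read 3.65, 3.47 and 3.53 in hCA-Notumor, 2.83, 2.77 and 2.84 in DMH and 2.47, 2.44 and 2.30 in hCA-Tumor. Its groups were far apart. It rose 1.66-fold in hCA-Notumor (0.73 ± 0.07, adjusted p = 0.00024) and fell in hCA-Tumor (-0.41 ± 0.07, adjusted p = 0.00303). The high calcium groups differed 2.21-fold, and on the brightest probes Acly was the only member past 2-fold there. In that contrast 2.92% of all features were called at least 2-fold higher and 4.61% at least 2-fold lower.

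Acss2, which makes acetyl-CoA from acetate, read 3.56, 3.37 and 3.52 in hCA-Notumor, 2.97, 2.88 and 2.93 in DMH and 3.13, 2.97 and 3.00 in hCA-Tumor. It rose 1.47-fold in hCA-Notumor (adjusted p = 0.000864) and differed by 0.11 in hCA-Tumor. Scd2, a stearoyl-CoA desaturase, read 6.53, 6.25 and 6.34 in hCA-Notumor, 5.99, 5.90 and 5.84 in DMH and 5.83, 5.79 and 5.74 in hCA-Tumor. It rose 1.38-fold in hCA-Notumor and differed by -0.12 in hCA-Tumor, although the arrays of the latter did not overlap with DMH. With the slide as a block the rise of Scd2 was 0.39 and missed the threshold (adjusted p = 0.0515).

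Scd1, the desaturase that makes oleate, fell in hCA-Notumor against DMH, where Scd2 rose, and fell in hCA-Tumor too. It read 2.64, 2.67 and 2.53 in hCA-Notumor and 1.97, 2.12 and 2.49 in hCA-Tumor, against 3.86, 3.80 and 3.89 in DMH. All 6 high calcium arrays lay more than 1 log2 unit below every DMH array. The fall was 2.36-fold in hCA-Notumor (-1.24 ± 0.12, adjusted p = 0.000354) and 3.15-fold in hCA-Tumor (-1.65 ± 0.12, adjusted p = 0.000191), at percentiles 2.6 and 0.8 of all features. These and Me1 in hCA-Notumor were the calls of at least 2-fold against DMH, where 2.89% and 1.63% of all features were called at least 2-fold lower, and 2.56% and 2.23% at least 2-fold higher. Scd1 was 0.42 higher in hCA-Notumor than in hCA-Tumor, a call lost without array 1 or 2 of either group (0.31 to 0.40).

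Me1, malic enzyme, supplies NADPH for fatty acid synthesis. It read 0.16, 1.1 and 0.46 in hCA-Notumor, 0.83, 1.15 and 1.39 in hCA-Tumor and 1.99, 1.95 and 1.58 in DMH, with a wide spread in the high calcium groups. It fell 2.40-fold in hCA-Notumor (-1.26 ± 0.26, adjusted p = 0.0082), and the difference of -0.71 in hCA-Tumor missed the threshold (adjusted p = 0.0653). Fasn, which assembles palmitate, read 5.06, 4.98 and 5.05 in hCA-Notumor, 4.91, 4.79 and 4.92 in hCA-Tumor and 5.36, 5.23 and 5.21 in DMH. Both high calcium groups lay below DMH without overlap, by -0.23 and -0.39, of which the first was lost without array 2 or 3 of hCA-Notumor (-0.24 to -0.21).

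Elovl6, which elongates palmitate, read 2.62, 2.51 and 2.51 in hCA-Notumor, 2.16, 2.16 and 2.46 in hCA-Tumor and 2.72, 2.73 and 2.66 in DMH. It fell in hCA-Tumor against DMH by -0.44 ± 0.09 (adjusted p = 0.0073) and differed by -0.16 in hCA-Notumor. Acaca, acetyl-CoA carboxylase, read -0.43, -0.49 and -0.49 in hCA-Notumor, -0.71, -0.80 and -0.60 in hCA-Tumor and -0.46, -0.23 and -0.27 in DMH. It fell by -0.38 ± 0.08 in hCA-Tumor, and hCA-Notumor overlapped DMH, with a difference of -0.15 that was -0.22 and called without array 1 of DMH. Between the high calcium groups the calls of Elovl6 (0.28) and Acaca (0.23) were lost without array 1 or 2 of either group and without array 3 of hCA-Notumor (0.23 to 0.30 and 0.18 to 0.24).

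Most markers of fat cells were lower in both high calcium groups, as were Scd1 and Fasn, while Me1 was called lower in hCA-Notumor only. The fatty acid genes Acly, Acss2 and Scd2 instead rose in hCA-Notumor, by 0.73, 0.56 and 0.46. Of 10 adipocyte markers tested 8 fell in hCA-Notumor (17.1% of all features did), with a list median of -3.12, and 7 fell in hCA-Tumor (15.1% of all features), with a median of -2.86. Their summed linear signal, relative to each array's 75th percentile, was 46.0 to 51.3 on the DMH arrays, 7.25 to 13.2 in hCA-Notumor and 12.2 to 20.3 in hCA-Tumor. Adipoq, adiponectin, read -6.25, -3.92 and -4.88 in hCA-Notumor, -4.31, -4.26 and -1.62 in hCA-Tumor and 1.05, 0.94 and 1.14 in DMH, and cleared the background threshold on 8 arrays. Fabp4, the fatty acid binding protein of adipocytes, fell by 1.80 and 1.04, Cidec, a lipid droplet protein, by 1.61 and 1.58, and Plin4, another lipid droplet protein, differed by -0.38 and 0.28. Lipe, hormone-sensitive lipase, differed by 0.29 and -0.10 and did not pass. Lep and Pck1 were listed but not tested. The lowest readings were -6.9 for Cfd, another listed marker, and -6.25 for Adipoq, both on array 1 of hCA-Notumor. There and on array 2 of hCA-Tumor 8 of the 10 markers were well above background, and on the other arrays all 10 were. Scd1, Me1 and Fasn are also expressed in fat, and the part of adipocyte RNA in their difference was not tested. In bulk RNA, fewer cells of a type and less RNA per cell cannot be told apart.

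**Figure D4:**
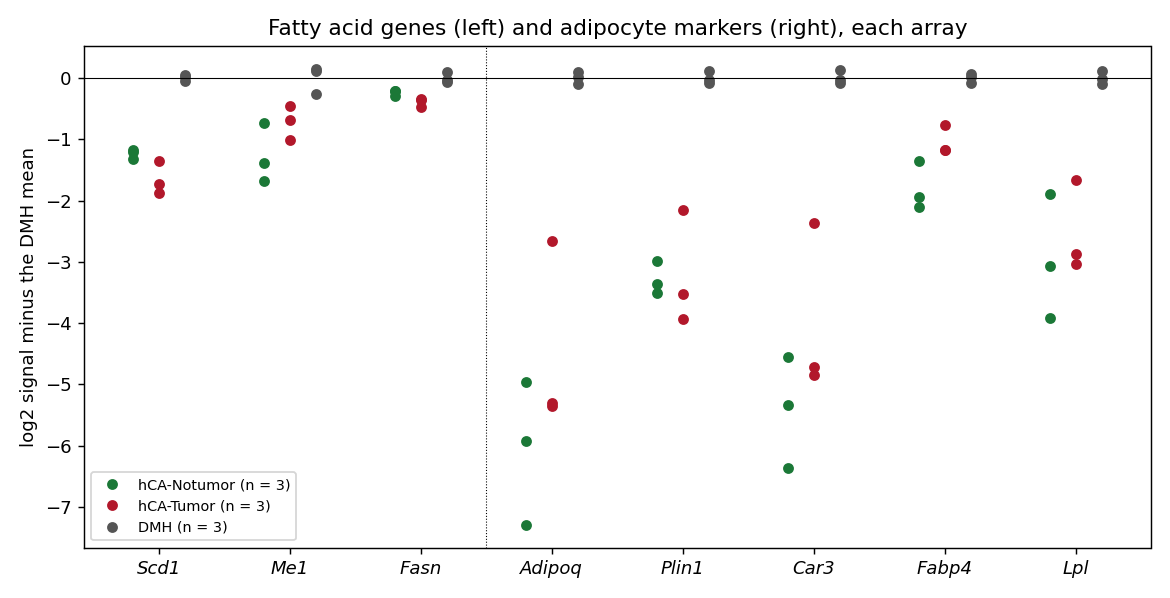
Log2 signal on each array minus the gene's DMH mean for Scd1, Me1 and Fasn and for 5 adipocyte markers (Adipoq, Plin1, Car3, Fabp4 and Lpl), chosen after their values were seen. All high calcium arrays lie below the DMH arrays for each of these 8 genes, unlike those of the markers Lipe and Plin4, which are not drawn.

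Markers of other cells also differed beside the sterol enzymes. Their counts stand beside 18.5% higher and 17.1% lower of all features in hCA-Notumor against DMH, and 22.1% and 15.1% in hCA-Tumor. Of 12 markers of absorptive colonocytes, the mature surface cells, 7 rose in hCA-Notumor (median 0.39), in hCA-Tumor 1 rose and 3 fell (median -0.07), and 8 were higher in hCA-Notumor than in hCA-Tumor. Their summed signal was 738 to 881 in hCA-Notumor, 637 to 768 in DMH and 532 to 746 in hCA-Tumor. Guca2a, guanylin, rose by 0.38 in hCA-Notumor. Krt20, a keratin of surface cells, differed by 0.28 and 0.05 and Car1, a carbonic anhydrase, by -0.81 and -1.31, and neither passed.

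General epithelial markers differed less. Of 12 such markers 3 rose in hCA-Notumor and 2 rose and 1 fell in hCA-Tumor, with sums of 1590 to 1710, 1580 to 1670 and, in DMH, 1350 to 1540. Krt8 and Krt19, simple epithelial keratins, rose by 0.29 and 0.39 in hCA-Notumor, and Lgals4, a galectin of gut epithelium, rose by 0.33 in hCA-Tumor. All 10 smooth muscle markers rose in hCA-Tumor (median 1.20) and 7 of 10 in hCA-Notumor (median 0.71), with sums of 656 to 858, 460 to 575 and, in DMH, 249 to 426, and Cnn1, calponin, rose by 1.38 and 0.68. For 2 other muscle genes, Acta2 and Tagln, the rise passed in hCA-Tumor (1.04 and 1.31) and the differences in hCA-Notumor, 0.56 and 0.74, did not.

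Of 12 markers of dividing crypt cells 8 fell and 1 rose in hCA-Notumor (median -0.84) and 9 fell in hCA-Tumor (median -0.29), with sums of 54.5 to 60.1, 55.6 to 61.5 and, in DMH, 70.8 to 74.1. Mki67 fell by 0.83 and 0.35, Pcna differed by 0.13 and fell by 0.29, and Mcm6 rose by 0.22 and fell by 0.20. Of 11 blood cell markers 2 fell and 1 rose in hCA-Notumor and 6 fell in hCA-Tumor, with sums of 96.3 to 102, 69.1 to 81.0 and, in DMH, 96.2 to 102, and Jchain, of plasma cells, fell by 0.46 in hCA-Tumor, while Cd14 fell by 0.22 there and Ptprc passed in no contrast. Of 8 squamous and sebaceous markers tested 4 fell in hCA-Notumor and 3 fell in hCA-Tumor while 1 rose, with sums of 4.03 to 4.59, 6.26 to 7.96 and, in DMH, 10.7 to 11.4. Krt14, a basal keratin, fell by 2.51 and 1.02, Krt15 fell by 1.70 and rose by 0.53, and Sprr1a fell by 1.04 and 0.93. The part of these cells in the differences of the sterol and fatty acid genes was not tested.

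Where a gene had several probes, the dimmer ones mostly read lower in hCA-Tumor than the brightest. Of the 31 genes 15 had several kept probes, and 14 had several that were above background on all arrays. Over these 14 the median of the dimmer probes' difference minus the brightest probe's was -0.21 in hCA-Tumor against DMH and 0.08 in hCA-Notumor against DMH. All 4101 genes with several such probes showed it too, with medians of -0.15 (69.5% of genes below 0) and 0.11. Between the high calcium groups this median was larger, at 0.41 over the 14 genes, 0.67 over the 8 sterol enzymes among them and 0.26 over all 4101 genes. The part of this offset in the differences between hCA-Tumor and the other groups was not tested.

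Single genes show its size. The brightest Hmgcs1 probe differed by 0.01 in hCA-Tumor and the dimmer by -0.96. For Dhcr7 these values were 0.14 and -1.20, for Insig1 0.09 and -0.47, and for Insig2 -0.06 and -0.69. The dimmer probes of these 4 genes passed the threshold, and the brightest did not. For Acaca the brightest probe gave -0.15 and the dimmer probe that was above background on all arrays 0.75, with neither called.

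**Figure D5:**
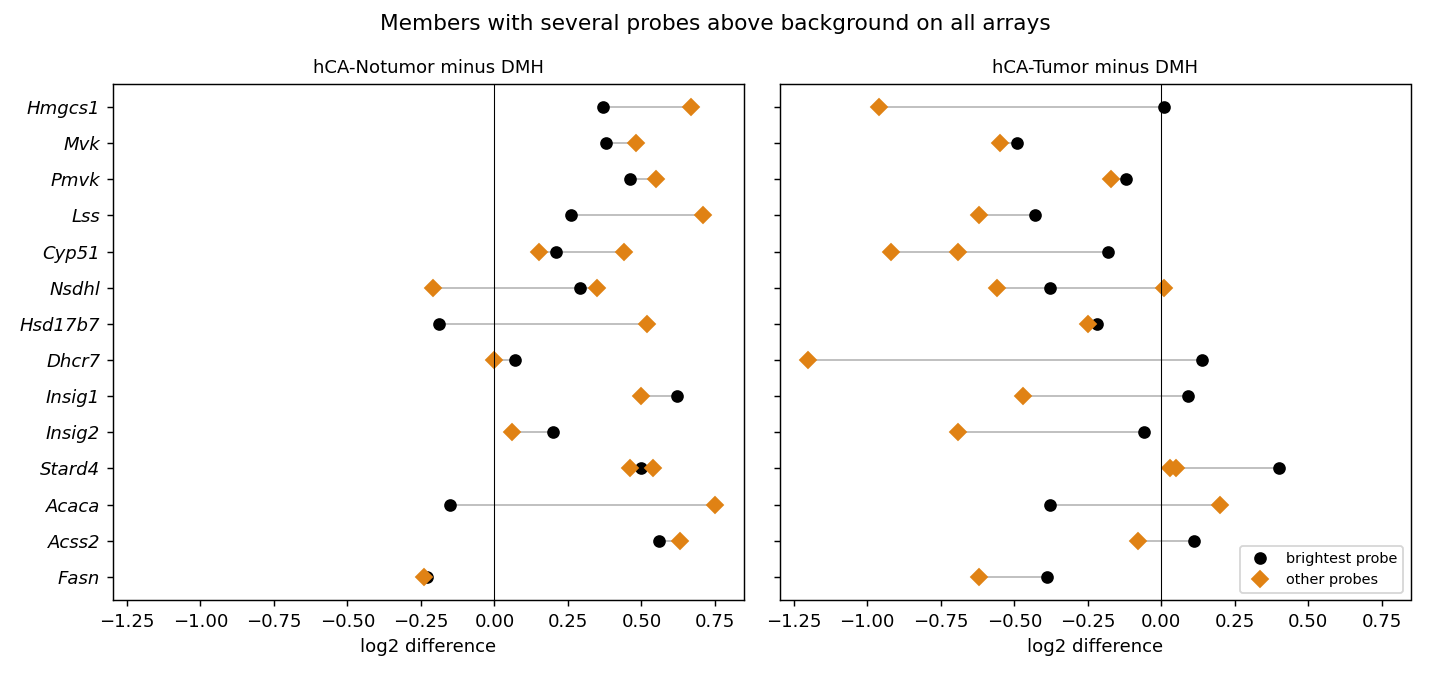
Log2 difference against DMH for the brightest probe (circles) and the other probes (diamonds) of the 14 genes with several probes above background on all arrays, hCA-Notumor at left and hCA-Tumor at right. In hCA-Tumor most diamonds lie left of the circles, as for Hmgcs1 at -0.96 against 0.01 and Dhcr7 at -1.20 against 0.14.

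Slides were shared between groups only in part: the 3 hCA-Notumor arrays lay on slide 1 with array 1 of DMH, arrays 1 and 2 of hCA-Tumor lay on slide 2 with arrays 2 and 3 of DMH, and array 3 of hCA-Tumor lay alone on slide 3. Within slide 1 the sterol median of hCA-Notumor against DMH was 0.27 with 9 called higher, and within slide 2 that of hCA-Tumor against DMH was -0.21 with 9 called lower. The first of these rests on 1 DMH array, and the spread behind its calls comes from the other arrays, so that array is assumed to vary like them. The high calcium groups share no slide, and with the slide as a block their sterol median was 0.42 with 10 called higher. That value is linked only through the DMH arrays, so it too rests on the 1 DMH array of slide 1. Array 3 of hCA-Tumor, alone on its slide, does not enter it.

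Other genes of the pathway were taken from lists, whose counts stand beside the shares of all features: 18.5% higher and 17.1% lower in hCA-Notumor against DMH, 22.1% and 15.1% in hCA-Tumor, and 19.8% and 27.9% between the high calcium groups. Of 17 tested genes for sterol uptake and related SREBP targets, 5 rose and 1 fell in hCA-Notumor against DMH, 4 rose and 9 fell in hCA-Tumor, and 10 were higher and 1 lower in hCA-Notumor than in hCA-Tumor. The medians were 0.16, -0.22 and 0.30. Fads2, a fatty acid desaturase, rose by 0.77 and 0.26. Aacs, which activates acetoacetate for sterol synthesis, rose by 0.38 in hCA-Notumor and fell by 0.23 in hCA-Tumor. Vldlr, a lipoprotein receptor, differed by -0.05 in hCA-Notumor and rose by 0.60 in hCA-Tumor.

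Of 24 genes for further fatty acid and triglyceride steps, 3 rose and 7 fell in hCA-Notumor, and 1 rose and 12 fell in hCA-Tumor, with medians of -0.10 and -0.24. Thrsp, a lipogenic regulator strongly expressed in fat, read -3.79, -2.99 and -3.50 in hCA-Notumor, -3.39, -3.03 and -1.27 in hCA-Tumor and -0.17, -0.30 and -0.16 in DMH. It fell by 3.22 ± 0.51 and 2.35 ± 0.51 (adjusted p = 0.00284 and 0.0101), in the same direction as the adipocyte markers. Gpam, the first acyltransferase of triglyceride synthesis, had the sterol form, rising by 0.70 and falling by 0.47, and was 1.17 higher in hCA-Notumor than in hCA-Tumor. Its signal was dim, from -5.50 to -3.92, and well above background on 8 arrays. The intestinal fatty acid binding proteins split, Fabp2 falling by 1.34 in hCA-Tumor and Fabp1 being 1.58 lower in hCA-Notumor than in hCA-Tumor.

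Of 17 further regulators, near those shares in hCA-Notumor, 4 rose and 3 fell there, 2 rose and 3 fell in hCA-Tumor, and 4 were higher and 8 lower in hCA-Notumor than in hCA-Tumor. Sp1, the factor of GC boxes, read 0.52, 0.63 and 0.52 in hCA-Notumor, 0.97, 1.07 and 1.31 in DMH and 1.39, 1.32 and 1.16 in hCA-Tumor. It fell by 0.56 in hCA-Notumor and was 0.73 lower there than in hCA-Tumor. Rxra, a nuclear receptor partner, was 1.35 lower in hCA-Notumor than in hCA-Tumor, and its DMH array on slide 1 read 1.09 against 2.07 and 1.89 on slide 2. Nr1h3, the oxysterol receptor LXR alpha, rose by 0.39 in hCA-Tumor.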

How the data were processed

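Labelled RNA was hybridised to one-colour Agilent arrays, 1 per sample. The authors deposited scanner intensity values, background-subtracted by Agilent Feature Extraction 10.5.1.1 per the submitters' processing notes and the file headers. Their deposited log2 table of 23726 probes differs from the scanner values by 1 constant per array, close to the array's median over all probes, and served as an alternative.

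From the intensities, log2 minus each array's 75th percentile was taken, without control and outlier spots, and 0 spots were saturated. Between 61.1 and 73.8% of 41174 probes were well above background per array, and 27207 were kept as such on all arrays of at least 1 group. Probes were named through a RefSeq table by transcript accession (25097 with 1 symbol), and the brightest kept probe stood for a gene. The fit was made by limma 3.58.1 under R 4.3.3 (all 9 arrays, 3 contrasts, Benjamini-Hochberg at 0.05), after testing on simulated data. Differences are log2 with standard errors, n = 3 arrays per group.

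The members and lists were chosen with earlier results of these data known. Values on every array are given for members past the threshold in at least 2 contrasts and the 3 largest differences of each branch. At most 4 called genes per pathway list, with the largest differences, and the 3 brightest markers per cell type are named. Promoters holding TCACNCCAC are shown, and other genes named outside this rule were chosen after their values were seen. A few genes of the pathway lists that met it are not reported here.

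Alternatives were normexp background correction (offset 50), quantile normalization, the deposited table, filters, the mean of a gene's probes, slide and replicate number as blocks, only the compared groups, array weights and each array left out. Chosen after seeing the data were leaving out both arrays of lowest weight together, keeping the same probes under normexp and the deposited table, centring on medians, and showing each kept probe beside the brightest.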

Additional observations from a re-analysis of the deposited data

How the results depend on the processing

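Most calls kept their direction, but fewer passed under every alternative. Of sterol calls 0 of 13 did so in hCA-Notumor against DMH, 3 of 10 in hCA-Tumor and 7 of 12 between the high calcium groups. For fatty acid genes these counts were 2 of 6, 3 of 5 and 1 of 6, and for regulators 0 of 2, 0 of 2 and 0 of 3. Over 2015 values of single genes, called or not, under the alternatives, 243 lost the threshold, 49 gained it and 71 changed sign. Of these 71, 61 passed under neither setting. The other 10 were Fdps at -0.01 in hCA-Notumor against DMH on the deposited table, again on its same probes and with centring on the median of all probes, Nsdhl at -0.20 between the high calcium groups with normexp, and, with the mean of a gene's probes, Hsd17b7 at 0.16 in hCA-Notumor, Hmgcs1 at -0.47, Dhcr7 at -0.53, Insig1 at -0.19 and Acaca at 0.05 in hCA-Tumor, and Dhcr7 at 0.56 between the high calcium groups. For Nsdhl the brightest probe changed, and for the others the cause was not tested. Alternatives that kept the probes or changed only the centring were chosen after seeing the data. On the same probes the deposited table gave the values below except 0 fatty acid calls higher in hCA-Notumor, and normexp gave sterol medians of 0.21 in hCA-Notumor and 0.54 between the high calcium groups, with 6 sterol calls higher and 0 lower and a fatty acid median of -0.10 in hCA-Notumor and 0 sterol calls higher in hCA-Tumor. Centring on the median of all probes gave the medians of the deposited table, with 0 sterol calls in either direction and 0 fatty acid calls higher in hCA-Notumor, 3 sterol calls lower in hCA-Tumor and 2 fatty acid calls higher between the high calcium groups.

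In hCA-Notumor against DMH, sterol calls higher were 6 with normexp and 0 on the deposited table, and calls lower were 0 with normexp, quantile normalization, the deposited table, no filter, the mean of probes, the slide block, within slide and only the compared groups. The sterol median was 0.20 with normexp and 0.10 on the deposited table. Fatty acid calls higher were 1 on the deposited table, and calls lower were 5 with array weights. The fatty acid median was -0.10 with normexp, -0.34 on the deposited table, 0.15 with the mean of probes and -0.09 with the slide block and within slide. Leaving out 1 array gave 0 to 1 sterol calls lower.

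In hCA-Tumor against DMH, sterol calls higher were 0 with normexp, the deposited table, no filter, only the compared groups and both median centrings, 2 with the slide block, within slide and without both low-weight arrays, and 3 with array weights. Sterol calls lower were 4 on the deposited table. The sterol median was -0.15 with normexp, -0.32 on the deposited table, -0.31 with the mean of probes, and -0.21 with the slide block, within slide and without both low-weight arrays. The fatty acid median was -0.54 on the deposited table. Leaving out 1 array gave 0 to 2 sterol calls higher and sterol medians from -0.22 to -0.15.

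Between the high calcium groups the sterol median was 0.39 with normexp, 0.45 on the deposited table, 0.57 with the mean of probes and 0.42 with the slide block. Fatty acid calls higher were 2 on the deposited table, 3 without a filter and 7 without both low-weight arrays, and calls lower were 1 on the deposited table. Leaving out 1 array gave 3 to 6 fatty acid calls higher, 0 to 1 lower and medians from 0.27 to 0.41.

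Replicate numbers are shared by the groups but did not pair the arrays, since deviations of same-numbered arrays correlated from -0.567 to 0.221. On slide 2, arrays 1 and 2 of hCA-Tumor correlated with the DMH arrays at 0.221 to 0.552, and with array 1 of DMH at -0.567 and -0.459. On slide 1 that DMH array correlated with the hCA-Notumor arrays from -0.191 to 0.114. With array 3 of hCA-Tumor, on another slide, it correlated at 0.574. With the replicate block, sterol calls lower in hCA-Notumor were 0, sterol calls higher in hCA-Tumor 0 and fatty acid calls higher between the high calcium groups 3. All 31 members were well above background on every array.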

Other observations

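Among genes that store, export or oxidise cholesterol, called shares against DMH were near those of all features (18.5% higher and 17.1% lower in hCA-Notumor, 22.1% and 15.1% in hCA-Tumor). Of 13 tested, 2 rose and 2 fell in hCA-Notumor against DMH, 3 rose and 2 fell in hCA-Tumor, and 2 were higher and 4 lower in hCA-Notumor than in hCA-Tumor. Abcg5, one chain of the transporter that returns sterols to the gut lumen, read 1.56, 1.43 and 1.64 in hCA-Notumor, 2.97, 2.85 and 2.62 in hCA-Tumor and 0.03, 0.51 and -0.08 in DMH. Its groups were separate, and it rose 2.62-fold and 6.33-fold (limma, adjusted p = 0.000718 and 8.98e-05). Cyp7b1, an oxysterol hydroxylase, read -2.11, -2.12 and -2.19 in hCA-Notumor, -1.23, -1.13 and -1.27 in hCA-Tumor and -2.24, -2.06 and -2.33 in DMH, and only its hCA-Tumor arrays stood apart, by 1.00. Lipa, the lysosomal lipase that frees cholesterol from lipoprotein esters, had the sterol form, rising by 0.71 in hCA-Notumor and falling by 0.20 in hCA-Tumor. Nceh1, a cholesteryl ester hydrolase, fell by 0.74 and 0.96.

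The isoprenoid side branch, which draws on farnesyl diphosphate for ubiquinone, dolichol and protein prenylation, had few calls among few genes. Of 9 tested genes 1 rose and 1 fell in hCA-Notumor, 1 rose and 0 fell in hCA-Tumor, and 1 was higher and 2 lower in hCA-Notumor than in hCA-Tumor, where 19.8% and 27.9% of all features were. Pdss1, a subunit of the ubiquinone side chain synthase, read 2.33, 2.50 and 2.52 in hCA-Notumor, 2.15, 1.95 and 1.84 in DMH and 2.11, 2.09 and 2.00 in hCA-Tumor, and rose by 0.47. Coq2, the next enzyme of ubiquinone synthesis, fell by 0.26 in hCA-Notumor. Fnta, the shared subunit of prenyltransferases, was 0.52 lower in hCA-Notumor than in hCA-Tumor, and Rabggta, a Rab prenyltransferase subunit, rose by 0.16 in hCA-Tumor.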
